A study of Mus musculus with 4 samples.

Results

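The genes described here are 8 transcripts: Spp1, Gpnmb, Arg1, Lgals3, Trem2, Cd84, Fabp7 and Hmox1. They are grouped as genes of macrophages that clear dead tissue and build scar. They were chosen by symbol, as the matrix entries carrying these names, and all 8 were present among the 33954 genes of the matrix. Each was followed as unique molecular identifiers (UMIs, 1 per captured transcript copy) in nuclei of the mouse heart, before and 3 days after myocardial infarction, in wild-type animals and in animals with a Vegfa stop-gained allele. After infarction 7 of the 8 genes were readily found in macrophage or monocyte-like nuclei. Fabp7 was not: it had 1 UMI in the wild-type and 4 in the mutant nuclei of that type.

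After a coronary artery closes, monocytes enter the dying heart muscle, become macrophages, engulf dead cells and then direct repair. Macrophages that take up much lipid and debris are known to express a shared set of genes for lipid sensing, lysosomes and secreted matrix proteins. Spp1 encodes osteopontin, a secreted matrix protein that binds integrins and CD44. Lgals3 encodes galectin-3, a secreted lectin that binds sugars on cell surfaces and matrix. Trem2 encodes a surface receptor for lipids and apoptotic cells that signals through Tyrobp. Cd84 encodes a receptor of the SLAM family that binds itself on neighbouring immune cells. Gpnmb encodes a membrane glycoprotein of lysosomes and phagosomes whose transcription is known to be driven by the MiT/TFE factors. Arg1 encodes arginase 1, which turns arginine into ornithine, the precursor of polyamines and proline. Hmox1 encodes haem oxygenase 1, which breaks down the haem of engulfed red cells and is a classical target of the factor NRF2. Fabp7 encodes a fatty acid binding protein best known from glia.

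Promoter sequences, from 250 bases before to 20 bases after the annotated transcription start, were matched by symbol for 6 of the 8 genes in a RefSeq table of the assembly GRCm38.p6, which is older than the GRCm39 build named in the submitters' processing notes. Arg1 and Hmox1 were not matched. The sequences of Spp1 and Gpnmb are shown because these 2 genes had the largest differences between genotypes. They lie on the plus strand at chr5:104434861-104435130 and chr6:49036268-49036537, and capitals mark a motif match.
Spp1: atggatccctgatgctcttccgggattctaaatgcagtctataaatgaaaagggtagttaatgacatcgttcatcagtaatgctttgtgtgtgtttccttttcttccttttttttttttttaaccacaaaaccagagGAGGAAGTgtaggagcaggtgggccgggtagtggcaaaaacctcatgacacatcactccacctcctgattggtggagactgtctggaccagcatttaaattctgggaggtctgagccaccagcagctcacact
Gpnmb: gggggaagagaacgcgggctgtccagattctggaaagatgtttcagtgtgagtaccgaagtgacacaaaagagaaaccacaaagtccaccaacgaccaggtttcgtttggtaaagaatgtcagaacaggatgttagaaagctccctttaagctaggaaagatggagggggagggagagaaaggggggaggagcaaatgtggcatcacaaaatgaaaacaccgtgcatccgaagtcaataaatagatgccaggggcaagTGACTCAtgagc
The match in Spp1 is GAGGAAGT, a binding word of the myeloid factor PU.1, whose first base lies at -113 from the start. The match in Gpnmb is TGACTCA, the reverse complement of the AP-1 word TGAGTCA, with its first base at 9 after the start. On either strand, the PU.1 word occurred in 2.72% and the AP-1 word in 4.77% of 32851 promoters of this length. Also searched were the M-box TCATGTG (3.49% of promoters), the E-box CACGTG (6.57%) and the antioxidant element TGACNNNGC (11.1%), none of which matched in the windows of the 6 genes. Cd84 held TGAGTCA at -229, and the windows of Lgals3, Trem2, Fabp7 and another annotated Spp1 start held none of these words. No match overlapped another, and a match describes letters only.

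The study has 4 libraries, 1 per group: WT and Q150X hearts at homeostasis, and WT and Q150X hearts 3 days after infarction (3dpMI). Where 4 values follow each other they are in this order. WT animals are wild type, and Q150X animals carry a Vegfa allele made with CRISPR/Cas9 to mimic a human stop-gained variant of VEGFA, the main growth factor of blood vessels. The sample titles mark the mutant as "ho" while the design text writes Q150X beside another form, so whether both copies carry the stop is not clear from the labels. Age, sex and strain are not given in the sources used here, nor whether a library pooled hearts, and nuclei were prepared from whole heart without a stated sort. With 1 library per group no difference could be tested against the spread between animals. All intervals below are 95% intervals that cover counting error only: exact Poisson for counts per library total (CPM, UMIs scaled to a common total of 1000000), Clopper-Pearson for shares of nuclei, and exact conditional binomial for ratios. Where a count is 0, the limit given is the share or level that 3 counts would make.

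After filtering, the libraries held 4167 to 8479 nuclei. The median depth was 921 and 968 UMIs per nucleus at homeostasis and 2029 and 2671 after infarction, in WT and Q150X respectively. Libraries shared 38 to 101 cell barcodes per pair. Vegfa itself was counted at 427, 371, 203 and 127 CPM over all deposited barcodes of the 4 libraries. A stop codon need not alter the number of transcripts, so this count does not check the genotype labels. Cardiomyocyte-like nuclei, which a heart should hold, made up 37.5%, 13.8%, 14.7% and 6.0% of the 4 libraries.

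Macrophage or monocyte-like nuclei, named from 14 markers such as Csf1r, C1qa and Mrc1 and clustered without the 8 genes, numbered 70, 349, 1324 and 2375. Their share of nuclei was 1.68%, 5.68%, 15.6% and 32.3%, so it was higher after infarction and higher in Q150X at both times. The summed level of the 14 markers in them was 11019, 10163, 8091 and 7522 CPM, with Cd68 and Fcgr1 at 0 in WT homeostasis. A single cluster led by Cd163 and Mrc1 held 98.6% and 98.0% of these nuclei at homeostasis. After infarction a cluster led by St18 and Lilrb4b held most of them, 55.6% in WT and 78.8% in Q150X, so the infarction ratios below set different macrophage populations side by side. Markers of other cells were also counted in these nuclei. The summed level of 10 cardiomyocyte markers was 3981, 6234, 2687 and 833 CPM, that of 10 fibroblast markers 865, 1563, 1390 and 1902, and that of the 8 neutrophil markers 38.5, 48.0, 148 and 227. Their part in the results was not tested.

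At homeostasis the repair genes were almost unseen. In the macrophage or monocyte-like nuclei Spp1, Gpnmb, Arg1, Trem2 and Fabp7 had 0 UMIs in both libraries. A count of 0 allows a share of nuclei with a UMI of up to 4.29% in WT and 0.860% in Q150X. It sets no limit on nuclei that express the gene, since the median depth was 648 and 710 UMIs and a nucleus expressing it may yield none. Lgals3 had 0 UMIs in WT and 14 in Q150X, and Hmox1 had 1 and 7. Cd84 was the exception, with 11 UMIs in WT (212 CPM, 106 to 379) and 95 in Q150X (304, 246 to 371). The Cd84 ratio of Q150X over WT was 1.44 (0.767 to 2.97), an interval that includes 1. Of all 3711 genes with at least 20 UMIs in this comparison, 23.9% were at least 1.5-fold higher in Q150X and 14.5% at least 1.5-fold lower, and Cd84, the single member measured, was in neither group.

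Over all nuclei at homeostasis the counts were low as well. Spp1 and Fabp7 had 0 UMIs in either genotype. Gpnmb had 3 UMIs in WT and 16 in Q150X, Arg1 and Trem2 each had 0 and 2, and Cd84 had 36 and 165.

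At 3 days after infarction all members but Fabp7 were readily counted. The macrophage or monocyte-like nuclei of WT 3dpMI held 954 UMIs of Spp1, 996 of Gpnmb, 290 of Arg1, 1166 of Lgals3, 266 of Trem2, 2061 of Cd84 and 1031 of Hmox1. Where the homeostasis count was 0, the ratio is given as a lower bound against 3 UMIs in that library. In WT, Lgals3 was at least 6.69-fold, Gpnmb at least 5.71-fold and Spp1 at least 5.47-fold higher after infarction. The bounds for Arg1 (at least 1.66-fold) and Trem2 (at least 1.53-fold) are low because the WT homeostasis nuclei are few. Cd84 was 3.22-fold higher (1.80 to 6.47), and Hmox1 was 17.7-fold higher with a very wide interval (3.18 to 701) that rests on 1 homeostasis UMI.

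In Q150X, with 349 homeostasis nuclei, the bounds were tighter. Spp1 was at least 70.0-fold, Gpnmb at least 63.8-fold, Arg1 at least 16.3-fold and Trem2 at least 12.7-fold higher after infarction. Lgals3, the secreted lectin, was 12.2-fold higher (7.26 to 22.3), Hmox1 16.7-fold (8.08 to 41.5) and Cd84 2.56-fold (2.09 to 3.17). These bounds do not show a larger effect than in WT, since they rest on more homeostasis nuclei. The difference between genotypes in the infarction ratio was not tested.

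Of all 10666 genes with at least 20 UMIs over the WT libraries, 10.6% were at least 2-fold higher after infarction and 13.1% at least 2-fold lower. In Q150X the shares were 19% and 13.5% of 12334 genes. Of the members, 5 in WT and 4 in Q150X had 0 UMIs at homeostasis. These passed the minimum of 20 UMIs through the infarcted library alone and could not have been lower, so no count or median over the members is read against these shares.

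**Figure D1:**
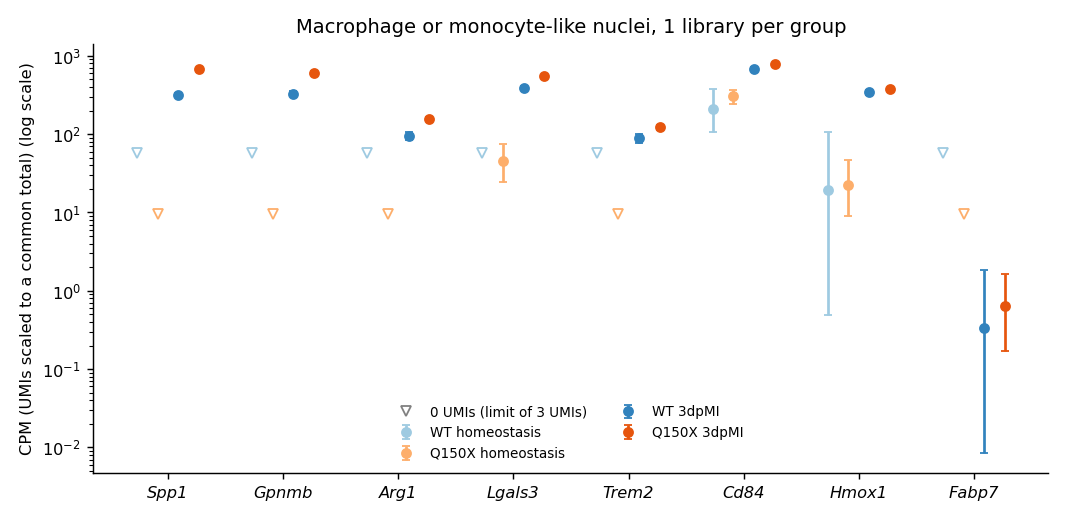
Level of the 8 genes in macrophage or monocyte-like nuclei, in CPM on a log axis, for the 4 libraries. Points are sums over the nuclei of 1 library with 95% Poisson intervals, and open triangles mark a count of 0 at the level 3 UMIs would give; at 3 days Spp1 stands at 316 in WT and 671 in Q150X.

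Between genotypes 3 days after infarction the secreted matrix protein gene Spp1 differed most. It stood at 316 CPM (296 to 336) in the macrophage or monocyte-like nuclei of WT and 671 (651 to 692) in those of Q150X, giving a ratio of 2.13 (1.98 to 2.28). At least 1 Spp1 UMI was found in 31.4% of these nuclei in WT and 60.1% in Q150X. The fullest nucleus held 16 Spp1 UMIs in WT and 30 in Q150X. The libraries did not overlap within counting error, but no further library of either genotype shows how far hearts vary.

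Gpnmb, the lysosomal glycoprotein gene, stood at 330 CPM (309 to 351) in WT and 612 (593 to 632) in Q150X, giving a ratio of 1.86 (1.73 to 1.99). Its share of nuclei was 21.1% and 36.2%. Gpnmb was unevenly spread among nuclei: 9.52% of WT nuclei held 3 or more of its UMIs, and 1 WT nucleus held 52.

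Arg1 stood at 95.9 CPM (85.2 to 108) in WT and 156 (146 to 166) in Q150X, giving a ratio of 1.62 (1.42 to 1.86). At least 1 Arg1 UMI was found in 9.89% of nuclei in WT and 16.8% in Q150X.

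The other members differed less, all in the same direction. Lgals3 stood at 386 CPM in WT and 546 in Q150X, giving a ratio of 1.41 (1.32 to 1.51). The receptor gene Trem2 stood at 88 and 122, giving a ratio of 1.38 (1.20 to 1.60). Cd84 stood at 682 and 777, giving a ratio of 1.14 (1.08 to 1.20), and was found in 57.3% and 68.5% of nuclei. The haem oxygenase gene Hmox1 stood at 341 and 373, giving a ratio of 1.09 (1.02 to 1.18). Fabp7, on 1 and 4 UMIs, gave a ratio of 1.91 with an interval from 0.189 to 93.9, which is not informative.

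Thus 3 of the 7 measured members, Spp1, Gpnmb and Arg1, were at least 1.5-fold higher in Q150X, where 6.37% of 13071 genes were. None of the 7 was at least 1.5-fold lower, where 8.91% of genes were. The median log2 ratio was 0.50 over the 7 members and 0.01 over all genes. The members were chosen with earlier results of these data known, so the counts and the median describe these genes only.

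Nuclei of Q150X also held more UMIs, with a median of 2281 in the macrophage or monocyte-like nuclei against 1892 in WT. To compare shares at 1 depth, each nucleus was thinned to 700 UMIs, which left 1212 WT and 2283 Q150X nuclei and left out 112 and 92. Spp1 was then found in 15% of WT nuclei (13.1 to 17.1) and 30.2% of Q150X nuclei (28.3 to 32.2). Gpnmb was found in 11.1% and 19.7%, and Lgals3 in 17.4% and 24.8%. For these 3 genes the intervals of the libraries stayed apart. For Arg1 (5.45% and 7.23%), Trem2 (5.78% and 7.36%), Cd84 (32.9% and 36.9%) and Hmox1 (15.3% and 15.9%) the difference was smaller. The intervals of Arg1, Trem2, Cd84 and Hmox1 overlapped at this depth.

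Spp1 UMIs were not limited to macrophages. In 5 classes taken as background (cardiomyocyte, fibroblast, vascular endothelial, pericyte and endocardial-like nuclei) a Spp1 UMI was found in 11.5% to 15.3% of nuclei in WT 3dpMI and in 35.9% to 39.5% in Q150X 3dpMI. The median depth of these classes ran from 1280 to 5823 UMIs in WT and from 2177 to 6869 in Q150X. The shares were thus nearly alike among classes within a library and far apart between the libraries. Per nucleus these classes held 0.163 Spp1 UMIs in WT (0.139 to 0.205 by class) and 0.551 in Q150X (0.507 to 0.590), against 0.721 and 1.79 in macrophage or monocyte-like nuclei. The count in other cells was therefore 22.7% of the macrophage value in WT and 30.7% in Q150X.

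Within a class the Spp1 share differed less between nuclei than their depth did. Vascular endothelial-like nuclei were split into 4 groups by depth. From a median of 790.5 to 2871 UMIs in the WT groups, the share with a Spp1 UMI went from 10.7% to 13.3%. In fibroblast-like nuclei it was 12.1%, 14.2%, 13.7% and 21.3% over such groups in WT and 34.7%, 37.9%, 39.0% and 46.3% in Q150X. With 3 or more UMIs required, Spp1 was found in 7.18% and 20.9% of macrophage or monocyte-like nuclei and in 0.147% and 2.13% of vascular endothelial-like nuclei, in WT and Q150X.

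Subtracting the mean UMIs per nucleus of these 5 classes left Spp1 at 244 CPM in WT and 465 in Q150X, giving a ratio of 1.91. For the other members except Fabp7 the other classes held 2.81% to 5.73% of the macrophage value in WT and 3.8% to 13.4% in Q150X. The subtraction gave ratios of 1.82 for Gpnmb, 1.57 for Arg1 and 1.01 for Hmox1.

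**Figure D2:**
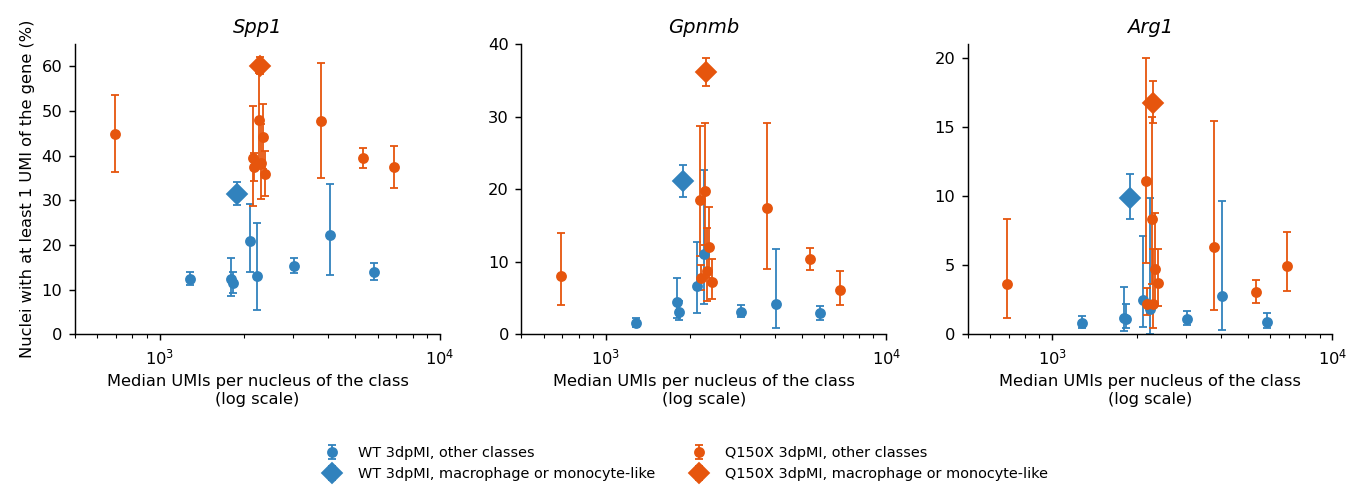
Share of nuclei with at least 1 UMI of Spp1, Gpnmb or Arg1 (percent, with 95% Clopper-Pearson intervals) against the median UMIs per nucleus of each cell class with 50 or more nuclei (log axis), for the 2 libraries at 3 days. Diamonds are macrophage or monocyte-like nuclei and circles other classes; for Spp1 the circles of 5 heart classes lie between 11.5% and 15.3% in WT and between 35.9% and 39.5% in Q150X.

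The members were chosen as macrophage genes, and the share of all genes highest in macrophage or monocyte-like nuclei is not given. The next count therefore describes these genes only. Named classes with at least 50 nuclei were compared by level in each infarcted heart. In both, Gpnmb, Arg1, Lgals3, Trem2, Cd84 and Hmox1 (6 of the 8 members) had their highest level in macrophage or monocyte-like nuclei. Spp1 did not, because the 136 neutrophil-like nuclei of Q150X stood at 738 CPM (593 to 907), an interval that includes the macrophage value of 671. Per nucleus they held 0.662 Spp1 UMIs, of which the 0.551 of the 5 background classes makes up 83.2%, and 124 CPM remained above that background. An unnamed cluster led by Timp1 and Col1a1, with markers of both fibroblasts and macrophages and a median depth of 689 and 657 UMIs, held Spp1 at 635 CPM in WT (51 nuclei) and 1011 in Q150X (171 nuclei). The WT value rests on 29 UMIs in 6 nuclei, 20 of them in 1 nucleus, and was 216 CPM without it. In Q150X the background makes up 64.5% of the 0.854 Spp1 UMIs per nucleus of this cluster. Lymphoid nuclei also held Cd84, a gene known in lymphocytes: T or NK-like nuclei of Q150X stood at 311 CPM. Smooth muscle-like nuclei of WT held Hmox1 at 174 CPM, on 25 UMIs in 54 nuclei, and at 96.4 CPM without 1 nucleus that held 12 of them.

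Over whole infarcted hearts, the macrophage or monocyte-like nuclei held 41.7% of all Spp1 UMIs in WT and 58.4% in Q150X. They held 72.3% and 82.7% of Gpnmb, 67.1% and 77.8% of Arg1, 73.3% and 84.0% of Cd84 and 69.0% and 73.6% of Hmox1. The same nuclei carried 11.4% of all UMIs in WT and 23.5% in Q150X.

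Clustering the myeloid nuclei without the 8 genes gave subtypes in which the members were unevenly spread. The lipid and lysosome macrophage-like subtype, named from lipid handling and lysosomal markers and led by the heat shock genes Hspa1a and Hspa1b with Atp6v0d2, held 262 WT and 740 Q150X nuclei, a share of 19.8% and 31.2%. It was not found at homeostasis (0 of 70 and 0 of 349 nuclei, for which 3 counts would make 4.29% and 0.860%). Resident-like nuclei, led by Colec12, Cd163 and Lyve1, went the other way, with 381 nuclei (28.8%) in WT and 275 (11.6%) in Q150X. Ccr2 monocyte-like nuclei, led by Vcan and Fn1, numbered 115 (8.69%) and 369 (15.5%). A cluster led by Ccr2 and Cx3cr1, which had too few markers for a name, held 334 (25.2%) and 638 (26.9%), and cycling-like nuclei numbered 136 (10.3%) and 181 (7.62%). Clusters led by Cdh13 and Galnt18, Pcdh9 and Rora, or Il1r2 and S100a8, and small interferon-response and antigen-presenting macrophage-like groups made up the rest. The median depth ran from 1196 (Ccr2 and Cx3cr1 cluster) to 3466 UMIs (cycling) over these 5 subtypes in WT and from 1592 to 4621 in Q150X.

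The lipid and lysosome macrophage-like nuclei were the main source of Gpnmb, holding 69.2% of its UMIs within the class in WT and 66.0% in Q150X. Gpnmb stood there at 945 CPM (876 to 1018) in WT and 1098 (1056 to 1142) in Q150X. Its ratio between genotypes inside the subtype was 1.16 (1.07 to 1.27), well below the 1.86 of the whole class. The same was seen for Arg1, with 176 and 186 CPM and a ratio of 1.06 (0.870 to 1.30), an interval that includes 1. Spp1 kept more of its difference, at 669 and 947 CPM, giving a ratio of 1.42 (1.28 to 1.56). After subtraction of the background classes the Spp1 ratio was 1.27, below that interval, beside 1.19 for Lgals3, 1.14 for Gpnmb and 1.02 for Arg1. Before subtraction Lgals3 had a ratio of 1.23 (1.11 to 1.37), Trem2 of 1.16 (0.926 to 1.47) and Cd84 of 1.05 (0.969 to 1.15). Hmox1 was lower in Q150X here, at 538 and 474 CPM, giving a ratio of 0.881 (0.785 to 0.992), which was 0.996 without the WT nucleus that held most Hmox1.

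Arg1 was distributed differently from Gpnmb. In Ccr2 monocyte-like nuclei Arg1 stood at 167 CPM (113 to 238) in WT and 357 (315 to 404) in Q150X, giving a ratio of 2.14 (1.46 to 3.24). The WT value rests on 30 UMIs, 12 of them in 1 nucleus, and without it the ratio was 3.54. This subtype held 10.3% (WT) and 26.0% (Q150X) of all Arg1 UMIs of macrophage or monocyte-like nuclei. Gpnmb was low in the same nuclei, at 83.4 and 93.2 CPM, giving a ratio of 1.12 (0.631 to 2.11). On 15 UMIs in WT, that ratio was 1.51 without the fullest WT nucleus, and 0.599 (61.1 and 36.6 CPM) after subtraction of the background classes, so its direction is not settled. Spp1 was 2.56-fold higher there in Q150X (1.88 to 3.56), at 250 and 641 CPM. After the same subtraction the Spp1 ratio was 2.46. Among the 5 larger subtypes Arg1 was lowest in resident-like nuclei, with 19 UMIs in WT and 13 in Q150X (22.1 and 15.7 CPM).

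Cycling-like nuclei, led by Knl1, Kif11 and Top2a, showed the largest Gpnmb difference. Gpnmb stood at 96.4 CPM (71.7 to 127) on 51 UMIs in WT and at 750 (694 to 810) on 656 UMIs in Q150X, giving a ratio of 7.79 (5.85 to 10.6). Spp1 had a ratio of 3.33 (2.65 to 4.24), Lgals3 of 2.04 (1.71 to 2.45), Arg1 of 1.82 (1.17 to 2.89), Trem2 of 1.80 (1.249 to 2.65) and Hmox1 of 1.33 (1.12 to 1.60). The Arg1 ratio rests on 28 WT UMIs in 8 nuclei, 17 of them in 1 nucleus, and was 4.57 without it. Other genes differed in the same nuclei: the summed level of the resident macrophage genes was 8312 CPM in WT and 6313 in Q150X, and that of lipid and lysosome handling genes was 4555 and 6845. The proliferation genes were nearly alike, at 4270 and 4501.

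Resident-like nuclei were the only subtype with enough nuclei in every library for ratios over time. The cluster led by Pcdh9 and Rora held 15 WT and 67 Q150X nuclei at homeostasis, and 8 in each infarcted library. Cycling-like nuclei (5 and 11) and the cluster led by Cdh13 and Galnt18 (5 and 16) were also seen at homeostasis. In WT, resident-like nuclei had 0 UMIs of Lgals3 and Hmox1 among 44 homeostasis nuclei. After infarction both genes were higher there, at least 3.39-fold and at least 3.30-fold. Spp1 and Gpnmb, also at 0 UMIs at homeostasis, had bounds of only 1.29-fold and 1.21-fold in WT. With the background classes subtracted these WT bounds were 0.516 and 1.05, so for Spp1 no rise is shown. Trem2 had no bound in WT. In Q150X, with 249 homeostasis nuclei, Spp1 was at least 16.2-fold, Gpnmb at least 9.63-fold and Trem2 at least 6.59-fold higher after infarction. The background classes hold 66.1% of the 0.833 Spp1 UMIs per nucleus found there after infarction, and the bound for Spp1 was 5.49-fold with them subtracted. Lgals3 was 8.85-fold higher (4.61 to 19.5) and Hmox1 9.59-fold (4.6 to 24.1). Cd84 was 2.74-fold higher in WT (1.32 to 6.86) and 1.86-fold in Q150X (1.44 to 2.43). Between genotypes at 3 days Spp1 had a ratio of 2.28 in these nuclei (1.80 to 2.91), Trem2 of 1.64 (1.17 to 2.31), Gpnmb of 1.44 (1.10 to 1.89) and Lgals3 of 1.42 (1.21 to 1.67). With the background classes subtracted the Spp1 ratio was 1.93.

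**Figure D3:**
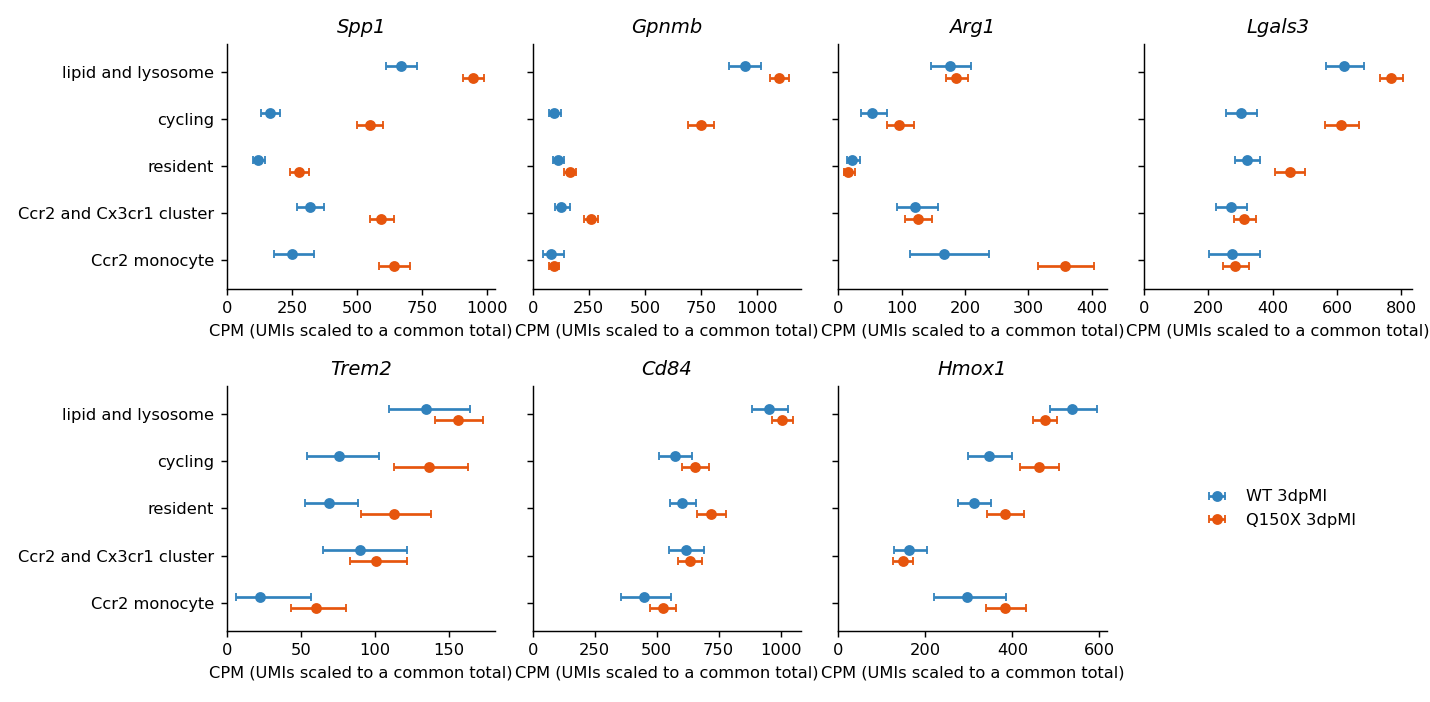
Level of 7 genes (CPM, linear axis, 95% Poisson intervals) in 5 macrophage or monocyte-like subtypes 3 days after infarction, in WT and Q150X. Gpnmb is highest in the lipid and lysosome subtype of both libraries (945 and 1098) and differs most in cycling nuclei (96.4 and 750), whereas Arg1 of Q150X is highest in Ccr2 monocyte-like nuclei (357).

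The class of Q150X thus held more of the subtypes rich in Gpnmb and Arg1. When the subtype levels of both libraries were weighted by the WT make-up, over 6 subtypes, the ratio of Q150X over WT was 1.80 for Spp1, 1.59 for Gpnmb and 1.19 for Arg1. The same weighting gave 1.40 for Trem2, 1.35 for Lgals3, 1.11 for Cd84 and 1.09 for Hmox1. With a common make-up Arg1 was below 1.5-fold, while Spp1 and Gpnmb stayed above it. The levels weighted had no background classes subtracted, and weighting after subtraction was not done. The Gpnmb value takes in the cycling-like nuclei, where its ratio was 7.79 on 51 WT UMIs. In the other subtypes weighted the Gpnmb ratio ran from 1.09 to 2.03, with 1.16 in the lipid and lysosome subtype. Of these only the cluster led by Ccr2 and Cx3cr1 passed 1.5-fold. No weighting without cycling-like nuclei was made, so a Gpnmb ratio above 1.5-fold is not shown for the rest of the class.

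**Figure D4:**
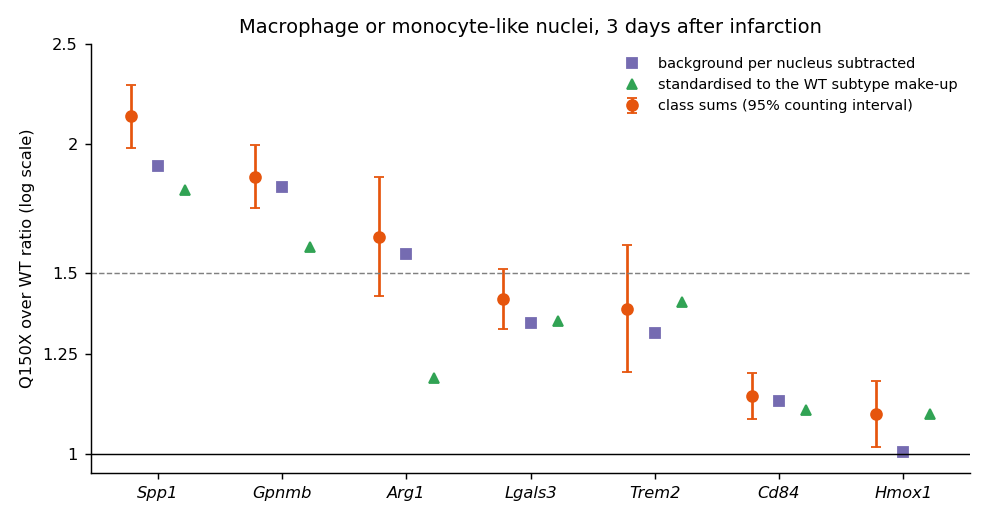
Ratio of Q150X over WT at 3 days in macrophage or monocyte-like nuclei (log axis) for 7 genes, from class sums with 95% counting intervals (circles), after subtraction of the UMIs per nucleus of 5 other classes (squares), and with the WT subtype make-up in both libraries (triangles). The dashed line marks 1.5. Arg1 goes from 1.62 to 1.19 with a common make-up, and Spp1 stays at 1.80 or above in all 3. Subtraction and common make-up were each applied alone, not together.

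Members found together in the same nucleus were counted next. Of the nuclei thinned to 700 UMIs, 36.8% in WT and 25.5% in Q150X held none of the 8 genes, 35.4% and 32.0% held 1, and the rest held up to 6. Of 28 pairs, 3 were found together 25% or more above the number expected from the product of their shares, in both libraries. They were Spp1 with Gpnmb, Gpnmb with Lgals3, and Lgals3 with Trem2. At least 10 expected nuclei were required in each library. In WT the pairs with Fabp7 fell below this, as did Arg1 with Spp1, Gpnmb or Trem2, and Gpnmb with Trem2. Those pairs could not enter the count, and no share for pairs of other genes is given. Gpnmb with Lgals3 stood out, in 47 nuclei where 23.3 were expected in WT (2.01 times) and in 201 where 111 were expected in Q150X (1.80 times). Spp1 with Gpnmb was found in 31 nuclei against 20.1 expected (1.54 times) and in 192 against 136 (1.41 times). Lgals3 with Trem2 was found in 17 against 12.2 (1.39 times) and in 52 against 41.6 (1.251 times).

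With the expectation formed within each subtype the ratios were lower. Gpnmb with Lgals3 was found together 1.51 times as often in WT and 1.47 times in Q150X, while Spp1 with Gpnmb came to 1.06 and 1.19 times and Lgals3 with Trem2 to 1.253 and 1.13 times. Thus 1 of the 3 pairs stayed 25% or more above expectation in both libraries. Gpnmb and Arg1 were not a stable pair, at 10 nuclei against 7.30 expected in WT and 30 against 32.5 in Q150X (0.922 times). All 3 of Spp1, Gpnmb and Arg1 were found in 5 of 1212 WT nuclei, where 1.10 were expected, and in 12 of 2283 Q150X nuclei, where 9.83 were expected.

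**Figure D5:**
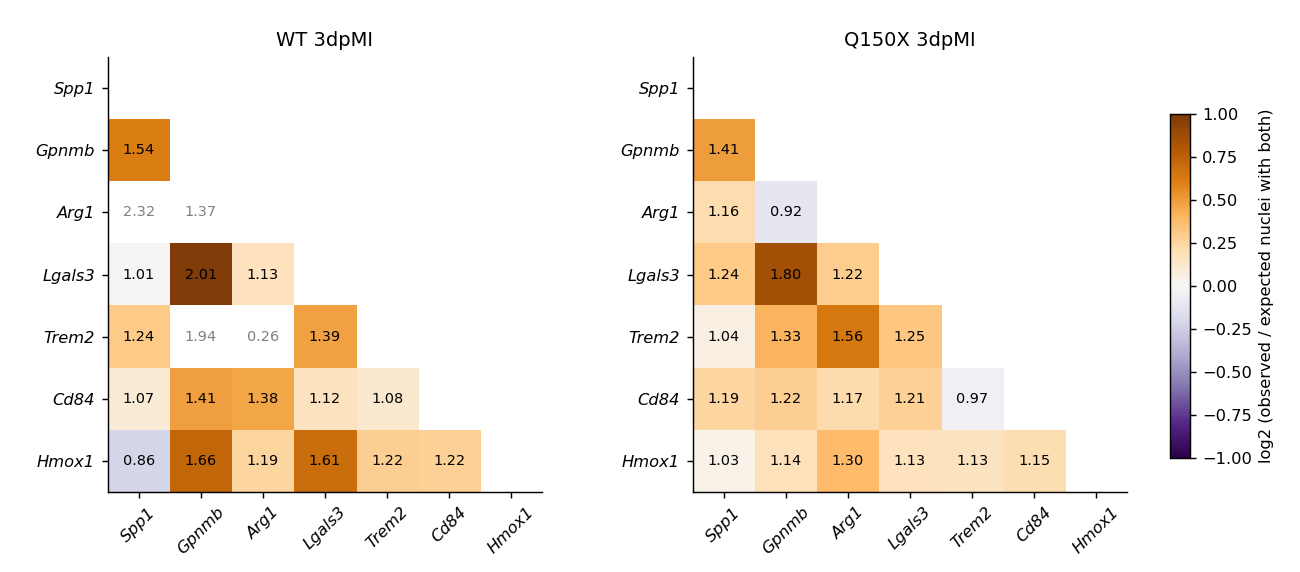
Observed over expected number of nuclei holding both genes of a pair (numbers, and colour on a log2 scale) among macrophage or monocyte-like nuclei thinned to 700 UMIs, in WT 3dpMI and Q150X 3dpMI. Uncoloured cells have fewer than 10 nuclei expected; the pair Gpnmb with Lgals3 is at 2.01 and 1.80.

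Nuclei with 3 or more UMIs of a gene at full depth were also compared for Gpnmb and Arg1. There were 126 such Gpnmb nuclei in WT and 445 in Q150X, of which 69.0% and 71.0% belonged to the lipid and lysosome macrophage-like subtype. There were 34 and 121 such Arg1 nuclei, of which 17 and 55 belonged to that subtype. Ccr2 monocyte-like nuclei made up 5.88% of the Arg1 nuclei in WT (2 of 34, 0.720 to 19.7) and 27.3% in Q150X (33 of 121). They made up 2.38% and 1.12% of the Gpnmb nuclei, so in WT the Arg1 interval includes the Gpnmb value. The genes also overlapped: 8 of 34 Arg1 nuclei in WT and 41 of 121 in Q150X held 3 or more Gpnmb UMIs. Of the Gpnmb nuclei, 28.6% in WT and 48.5% in Q150X also held 3 or more Spp1 UMIs.

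Over 45 profiles (each named class or macrophage subtype in each library, with at least 50 nuclei) the genes most like each lead gene were found by the Pearson correlation of log2 levels (CPM plus 10) among 6751 genes. The profiles of 1 library share its depth and the UMIs found in all its classes, so the values describe likeness only. For Gpnmb the leading genes were Lgals3 (r = 0.935), Trem2 (r = 0.927), Cd68 (r = 0.923), Ctsd (r = 0.920) and Slc37a2 (r = 0.919), so 2 other members came first. For Spp1 they were Ctsd (r = 0.95), which encodes the lysosomal protease cathepsin D, Ftl1 (r = 0.932), Mpeg1 (r = 0.926), Ctsb (r = 0.925) and Pkm (r = 0.924). For Arg1 they were Ccl2 (r = 0.935), a chemokine for monocytes, Cd300lf (r = 0.933), Sirpb1c (r = 0.932), Mefv (r = 0.929) and Fos (r = 0.928), none of which was among the first 5 of Spp1 or Gpnmb.

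Genes that work with the members were read in the same class sums at 3 days, as Q150X over WT, again beside 6.37% of all genes at least 1.5-fold higher and 8.91% lower. The lists, too, were chosen with earlier results of these data known. Of 9 measured osteopontin receptor genes, 3 were higher and 0 passed 1.5-fold, with Itgb5 at 1.31 and Itga4 at 1.22, while Itga9 stood at 0.695 and Itga8 at 0.562. Their median log2 ratio was -0.02. All 5 measured galectin genes and ligands were higher, 2 of them past 1.5-fold (Lgals1 at 1.76 and Lgals3bp at 1.61), with a median log2 ratio of 0.39.

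Of 13 TREM2 signalling genes, 9 were higher and 3 passed 1.5-fold, led by Apoe (1.99, 1.85 to 2.14), which encodes a lipid carrier that TREM2 binds, and Ms4a4a (1.65). The lowest were the lipid phosphatase gene Inpp5d (0.960) and Trem1 (0.926), and the median log2 ratio was 0.19. Of 8 measured SLAM family genes, 6 were higher, 1 passed 1.5-fold upward (Slamf6, 1.94 on 53 and 13 UMIs) and 1 downward (Slamf9, 0.477).

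The lipid and lysosome handling genes went most nearly with the members. Of 22, 20 were higher and 7 passed 1.5-fold, with a median log2 ratio of 0.48, and the highest were Fabp5 (2.11, 1.75 to 2.55), a fatty acid carrier, and Ctsl (2.04, 1.82 to 2.28), which encodes cathepsin L. The exceptions were the lipase gene Lpl (0.866) and the scavenger receptor gene Cd36 (0.799). This list holds some of the markers by which the lipid and lysosome subtype was named, and that subtype was a larger share of the Q150X class. The MiT/TFE factors and Gpnmb partners did not differ in this way: 3 of 6 were higher, 0 passed 1.5-fold in either direction, and the median log2 ratio was -0.02. Tfeb stood at 1.13, Sdc4 at 1.10, Mitf at 0.963 and Tfec at 0.903.

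Among 11 arginine and polyamine genes 6 were higher and 2 passed 1.5-fold, the arginine transporter gene Slc7a2 (1.77, 1.26 to 2.54) and Arg2 (1.76, 1.06 to 3.05). The polyamine synthase gene Srm (0.953) and the transporter gene Slc7a1 (0.861) were lowest. Among 16 haem, iron and NRF2 target genes 5 were higher, 0 passed 1.5-fold upward and 2 passed it downward: Gclm (0.546, 0.476 to 0.628) and Srxn1 (0.506, 0.380 to 0.675), which encode enzymes of the glutathione and peroxiredoxin systems. The ferritin genes Ftl1 (1.33) and Fth1 (1.16) were highest, and the median log2 ratio was -0.18. Of the fatty acid binding protein genes other than Fabp7, 3 were measured, with Fabp5 and Fabp4 (1.59), the latter also an endothelial marker, higher and Fabp3 (0.530) lower.

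Genes that mark recruited and resident cells differed in opposite directions. Both lists hold the markers by which the monocyte-like and resident-like subtypes were named. Of 10 recruited monocyte genes 9 were higher in Q150X and 7 passed 1.5-fold, with a median log2 ratio of 0.83 and the highest at Hp (2.64) and Ly6c2 (2.48). Of 11 resident macrophage genes 1 was higher, 0 passed 1.5-fold upward and 3 passed it downward, with a median log2 ratio of -0.36 and the lowest at Cbr2 (0.598) and Lyve1 (0.396). Of 10 proliferation genes 2 were higher and 0 passed 1.5-fold in either direction.

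In Q150X, 16 of 22 lipid and lysosome genes, 8 of 10 recruited monocyte genes and 9 of 16 haem, iron and NRF2 genes were at least 2-fold higher than at homeostasis, where 19% of all genes were. Of the measured genes of these lists, 2, 4 and 0 in turn had 0 UMIs at homeostasis. These passed the minimum of 20 UMIs through the infarcted library alone and could not have been lower. The counts of the lipid and lysosome and recruited monocyte lists are therefore not read against that share. In the same comparison 7 of 11 resident macrophage genes were at least 2-fold lower, where 13.5% of all genes were. In WT 14 of 22 lipid and lysosome genes and 5 of 11 resident genes passed 2-fold, upward and downward respectively, where 10.6% and 13.1% of all genes did. Of these lists 4 and 1 genes had 0 UMIs at homeostasis, and the same limit holds for them. Among single genes, the ratios were 7.30 (3.35 to 19.9) for Ctsb, 6.32 (1.74 to 52.3) for Ftl1, 4.09 (1.13 to 33.9) for Ccr2 and 0.146 (0.0869 to 0.263) for Lyve1. The WT homeostasis counts behind Ftl1 and Ccr2 were 2 UMIs each.

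Each genotype and time rests on 1 library, so the differences above compare libraries, and differences between hearts, surgery and infarct size cannot be told apart from genotype.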

How the data were processed

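Single-nucleus RNA was measured in 4 mouse heart libraries, 1 per group, with the groups taken from the labels. The sample titles themselves write scRNA. The deposited values are raw UMI counts per gene and nucleus, without normalisation, written by Cell Ranger 7.1.0 per the file headers. The submitters' processing notes name Cell Ranger, Scanpy and GRCm39, without their roles. Every deposited barcode had at least 500 UMIs.

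Nuclei with under 500 UMIs, under 300 genes or over 10% mitochondrial UMIs were removed. Doublets were called per library with Scrublet in Scanpy 1.11.5: the automatic threshold took 214 nuclei of WT homeostasis and 756 of Q150X 3dpMI. In the other libraries it marked under 0.5% of nuclei, so the highest scores were taken at a rate of 0.8% per 1000 nuclei (336 and 670). Kept nuclei held 5498152, 8393926, 26569719 and 27045605 UMIs (WT and Q150X at homeostasis, then WT and Q150X at 3dpMI).

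Nuclei were clustered (2000 variable genes, 30 components, 15 neighbours, Leiden resolution 1) without the 8 genes, and myeloid nuclei again at resolution 0.5. Clusters were named from 17 class and 11 subtype marker lists. Clusters with markers of another class scoring at least 0.5 of their own were left unnamed. The nuclei of all unnamed clusters, where they came to 200 or more together, were clustered once more. These naming rules were chosen after seeing the data. Counts were summed over the nuclei of a class and library and scaled to a total of 1000000 (CPM). Counts and medians over all genes, members and lists took in genes whose UMIs in the 2 libraries came to 20 or more. The ratios of single members had no such minimum. Named besides the members were the 5 most similar genes of each lead gene and up to 2 genes at each end of 12 pathway lists, with at least 50 UMIs. The ratio, interval and co-detection code was tested on simulated data. The members and lists were chosen with earlier results of these data known. Alternatives covered depth, doublets, mitochondrial share, clustering, weighting and thinning. Promoters came from RefSeq. Versions were leidenalg 0.10.2, scipy 1.17.1 and numpy 2.4.6 under Python 3.11.15.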

Additional observations from a re-analysis of the deposited data

Results flagged for a closer look

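In 5 comparisons the difference between genotypes at 3 days had opposite directions in 2 macrophage or monocyte-like subtypes, each with an interval apart from 1. Lgals3 was higher in Q150X in lipid and lysosome macrophage-like nuclei (ratio 1.23), resident-like nuclei (1.42) and cycling-like nuclei (2.04), and lower in the cluster led by Cdh13 and Galnt18 (0.689, 0.476 to 0.997, on 63 and 60 UMIs, and 0.796 without the WT nucleus that held most of them). That cluster was left unnamed because it also held vascular endothelial markers. Hmox1 was higher in resident-like (1.23) and cycling-like nuclei (1.33) and lower in lipid and lysosome macrophage-like nuclei (0.881, and 0.996 without the WT nucleus that held most of them). With 1 library per group, the differences between subtypes were not tested.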

How the results depend on the processing

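No paired analysis was possible because each group has 1 library. The number of members at least 2-fold higher after infarction in WT, 5, was 0 with at least 1000 UMIs per nucleus, a filter that left 6 WT homeostasis nuclei of the class, and 7 with libraries clustered separately; in Q150X it was 5 to 7. Most members enter these counts through the infarcted library alone. The number at least 1.5-fold higher in Q150X at 3 days, 3, was 3 under every alternative run except equal weighting of nuclei, which added Lgals3 at 1.56, and the common subtype make-up, where Arg1 stood at 1.19, and the number at least 1.5-fold lower was 0 under all. Members highest in the class numbered 5 to 7. Pairs found together 25% or more above expectation, 3, numbered 1 when nuclei over 5% mitochondrial UMIs were left out, 5 with libraries clustered separately and 7 without thinning. Over 11 alternatives the ratio of Q150X over WT at 3 days ran from 1.80 to 2.19 for Spp1, 1.52 to 1.97 for Gpnmb, 1.19 to 1.68 for Arg1 and 1.01 to 1.16 for Hmox1. No single-gene value whose interval lay apart from 1 changed direction. In the class 108 stayed within their interval and 89 moved, most of them infarction ratios bounded by homeostasis counts of 0. In subtypes, with 1 nucleus left out or background subtracted, 116 stayed and 10 moved. Leaving out the fullest nucleus, background subtraction, the common subtype make-up and the addition of unnamed macrophage-scoring clusters were chosen after seeing the data. Depth limits the homeostasis values, above all in WT.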

Other observations

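The members were also counted in other immune nuclei 3 days after infarction. Dendritic-like nuclei, 120 in WT and 190 in Q150X, held Spp1 at 93.6 CPM (62.2 to 135) and 247 (207 to 292), Gpnmb at 40.1 and 97.2, and Cd84 at 181 and 180.0. The UMIs per nucleus of the 5 background classes make up 70.0% and 76.4% of that Spp1 and 34.8% and 38.8% of that Gpnmb. In the 96 B-like nuclei of Q150X, Spp1 stood at 373 CPM and 14 nuclei held 3 or more of its UMIs, while Gpnmb stood at 209 and Cd84 at 344. Background makes up 50.4% of their Spp1. Only 39 B-like nuclei were found in WT, with 9 Spp1 UMIs and 4 Gpnmb UMIs. Interferon-response macrophage-like nuclei, 22 in WT and 77 in Q150X, held Spp1 at 666 and 773 CPM and Gpnmb at 378 and 447, with overlapping intervals for both genes. In WT 13 of the 21 Gpnmb UMIs lay in 1 nucleus, and background makes up 9.71% and 31.9% of the Spp1.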
